A study of Glycine max with 24 samples.

Results

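The soybean MYB genes are a large family of transcription factors, defined by a DNA-binding domain of imperfect helix-turn-helix repeats, and 71 of them were followed here across aphid-infested and uninfested leaves. They were taken as every gene whose symbol or listed synonym in the array annotation or the RefSeq gene table starts with MYB or GmMYB and that had a probe set of its own, with the phosphate-starvation regulator PHR20 left out. Where a gene had several probe sets, that with the highest mean over all arrays stood for it. The 71 genes were 71 of the 6031 soybean genes that had at least 1 single-gene probe set, and they were covered by 109 probe sets, with 25 genes on more than 1. A further 4 MYB genes were represented only on probe sets shared between several annotated genes and were not analysed here. The table held 62 of the 71 gene IDs, and the symbols of the other 9 come from the array annotation alone. Genes were counted by gene ID, and the symbol MYB145 stands under more than 1 of them. MYB64 and MYB114 list as synonyms MYB120 and MYB134, which are also the symbols of other members. Some of the 71 entries may therefore stand for the same gene.

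MYB proteins bind DNA in the promoters of their target genes and either activate or repress transcription. In plants the family controls flavonoid and phenylpropanoid synthesis, epidermal cell fate, the circadian clock and responses to drought, salt and cold, and in soybean several members are known for switching on the enzymes of isoflavonoid synthesis, which makes the defence compounds of legumes. Most soybean MYB genes were numbered from sequence alone, and a role is given below only for those with one established.

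Soybean aphids are phloem-feeding insects. RNA of the third trifoliate leaf was hybridised to Affymetrix soybean arrays from plants of the aphid-susceptible line SD01-76R and of the aphid-resistant line LD05-16060, each either infested with 30 aphids per plant or left without aphids, at day 1 and at day 7, with 3 arrays in each of the 8 groups and 24 in all. All plants shared a growth chamber regime of 25 C and 16 h of light. The labels call the 3 arrays of a group separate samples without saying whether plants were pooled, so a p-value here reflects only how much these samples varied, which can be technical variation in part. Each cultivar is a single line, and a difference between the cultivars is a difference between these lines with all the loci at which they differ.

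All levels below are normalized log2 intensities, on which a difference of 1 is a doubling, and all differences carry the standard error of the model fitted to the 8 groups. A difference was called where its adjusted p in limma, taken over all 37593 soybean probe sets, was below 0.05. The number of arrays limits the precision. Leaf transcripts were high on every array, with group means of 11.91 to 12.65 over 4 photosynthesis genes. Of 5 nodule genes, 2 lay near the array background in their mean over all arrays, and the others, ENOD40B at 7.07 among them, did not. Of the 3 uninfested susceptible arrays of day 1, replicate 1 stood apart most. On the 2 measures that follow, the other 2 arrays lay within the range of the remaining groups. The gap between 3′ and 5′ probe signals of 6 control transcripts, a measure of RNA integrity or labelling, was 1.721, 1.005 and 1.205 on these 3 arrays against 0.723 to 1.504 elsewhere, and the summed level of 3 phloem genes was 25.61 to 27.33 against 20.79 to 26.06 elsewhere. Replicate 1 of this group had a mean correlation of 0.900 with the other arrays, which themselves lay between 0.933 and 0.966. The uninfested susceptible arrays of day 1 enter 4 contrasts that together gave 16 of the 21 MYB calls. Those contrasts also called the most probe sets of all kinds. The shares were 5.01% for the susceptible aphid effect of day 1 and 18.7% for the uninfested cultivar difference of day 1. They were 10.5% for the susceptible day difference and 4.75% for the mean cultivar difference, against at most 3.91% in the other contrasts. The part of RNA quality or of tissue makeup in those MYB calls was not tested.

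Over the 13 contrasts, 14 of the 71 genes were called at least once, or 19.7% against 28.2% of all probe sets, and 57 were never called. Brightness on the array depends on each probe set's own affinity, so the signals of different genes are given only to place them within the measurable range. The median of the 71 mean levels was 7.29, against 7.62 over all soybean probe sets. The brightest probe sets were those of MYB176, MYB175 and MYB48, with MYB48 at a mean of 11. The dimmest were those of LOC547460 (GmMYB15) at 5.08, MYB84 at 5.11 and MYB185 at 5.12, all below the 5th percentile of the array values, which was 5.28. For 11 genes all 8 group means lay within 0.5 of that percentile or below it, and a further 6 had some groups there. For these genes a difference between groups could not be seen well.

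The genes also differed in how much they moved. The range of the 8 group means exceeded 1 in 18 of the 71 genes, and the median range was 0.63 for the MYB genes against 0.51 over all probe sets. MYB176, which in soybean binds the promoter of the chalcone synthase gene CHS8 and activates isoflavonoid synthesis, was among the steadiest, with group means of 11.8 to 12.11 and single arrays between 11.42 and 12.27. MYB175 spanned 0.47 and MYB12A 0.21. MYB50 spanned 1.27, from a mean of 11.23 in infested resistant leaves of day 1 to 9.96 in uninfested resistant leaves of day 7. The highest group mean fell in uninfested susceptible leaves of day 1 for 20 genes, or 28.2% against 25.8% of all probe sets. The lowest fell in uninfested resistant leaves of day 7 for 20 genes too, where 11.2% of all probe sets had their lowest mean. Among those 20, MYB164, LOC547460, MYB84, MYB185 and LOC778182 had all 8 group means near the array background, so their lowest group is poorly defined. The others of the 20 did not have all 8 there.

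**Figure D1:**
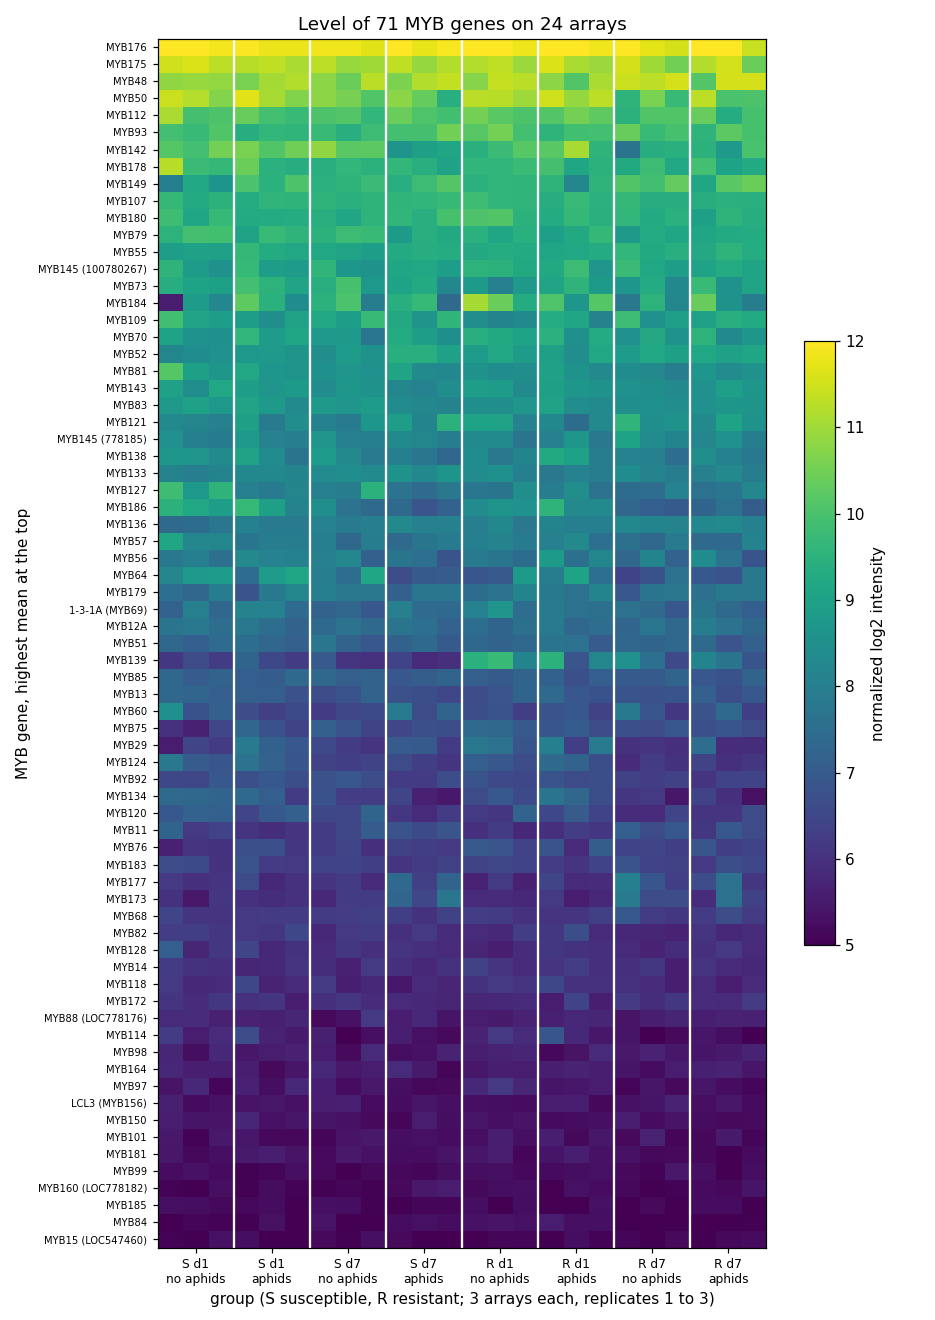
Normalized log2 intensity (colour, 5 to 12) of the 71 MYB genes (rows) on the 24 arrays (columns, ordered by cultivar S or R, day and aphids). Most rows keep 1 colour across all arrays, and differences between rows also carry the probe sets' own affinities.

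Aphid feeding on susceptible plants was compared at day 1 first, and 3 of the 71 MYB genes were called, where 5.01% of all probe sets were called. MYB127 fell (3.29% of all probe sets did), and MYB149 and MYB75 rose (1.72% did). MYB127 read 9.82, 8.73 and 9.54 in uninfested leaves and 8.06, 7.91 and 8.18 in infested leaves. It was lower on every infested array, by 2.48-fold (log2 difference −1.31 ± 0.35, adjusted p = 0.0396 in limma). MYB149 read 8.03, 9.18 and 8.62 without aphids and 10.03, 9.46 and 10.04 with them, and its groups did not overlap (1.23 ± 0.35, 2.35-fold, adjusted p = 0.046). MYB75 read 6.0, 5.63 and 6.49 without aphids and 7.31, 6.76 and 6.44 with them. Here the highest uninfested array lay just above the lowest infested one (0.80 ± 0.22, 1.74-fold, adjusted p = 0.0461). In bulk leaf RNA, fewer cells of a type and less RNA per cell cannot be told apart.

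The uninfested arrays, rather than the infested ones, were the extreme values for these genes. In the other 7 groups MYB127 had means of 7.64 to 8.49 against 9.36 in uninfested susceptible leaves of day 1, and MYB75 had means of 6.63 to 7.24 against 6.04. Without replicate 1 of the uninfested group the MYB127 difference was −1.08 (adjusted p = 0.254) and the MYB149 difference 0.94 (adjusted p = 0.292). That fit called 0.0239% of all probe sets, against 5.01% in the main fit, so most calls on the array were lost with it. No MYB gene was called when the 3′ to 5′ gap was a covariate, a fit in which 0.0293% of all probe sets were called, and the adjusted p-values were then 0.355 for MYB127, 0.372 for MYB149 and 0.234 for MYB75. The MYB75 call held in 8 of 24 fits that each left out 1 array, the MYB149 call also in 8, and the MYB127 call in 19, being lost without any infested susceptible array of day 1 or without replicate 1 or 3 of its controls.

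MYB55 and MYB136 lay just beyond the threshold. MYB55 read 8.90, 9.0 and 9.0 without aphids and 9.65, 9.30 and 9.21 with them, and all 3 infested arrays were above all 3 controls (0.42 ± 0.13, adjusted p = 0.0553). MYB136 read 7.43, 7.48 and 7.75 without aphids and 8.07, 7.92 and 7.89 with them (0.41 ± 0.13, adjusted p = 0.067). MYB29, an activator of the isoflavone synthase genes in soybean, read 5.52, 6.46 and 6.23 without aphids and 7.88, 7.18 and 6.89 with them. Its groups did not overlap, and the difference of 1.25 ± 0.44 had an adjusted p of 0.0895. The 71 differences had a median of 0, with 35 above 0, and groups did not overlap for 13 genes where 31% of all probe sets had such groups.

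**Figure D2:**
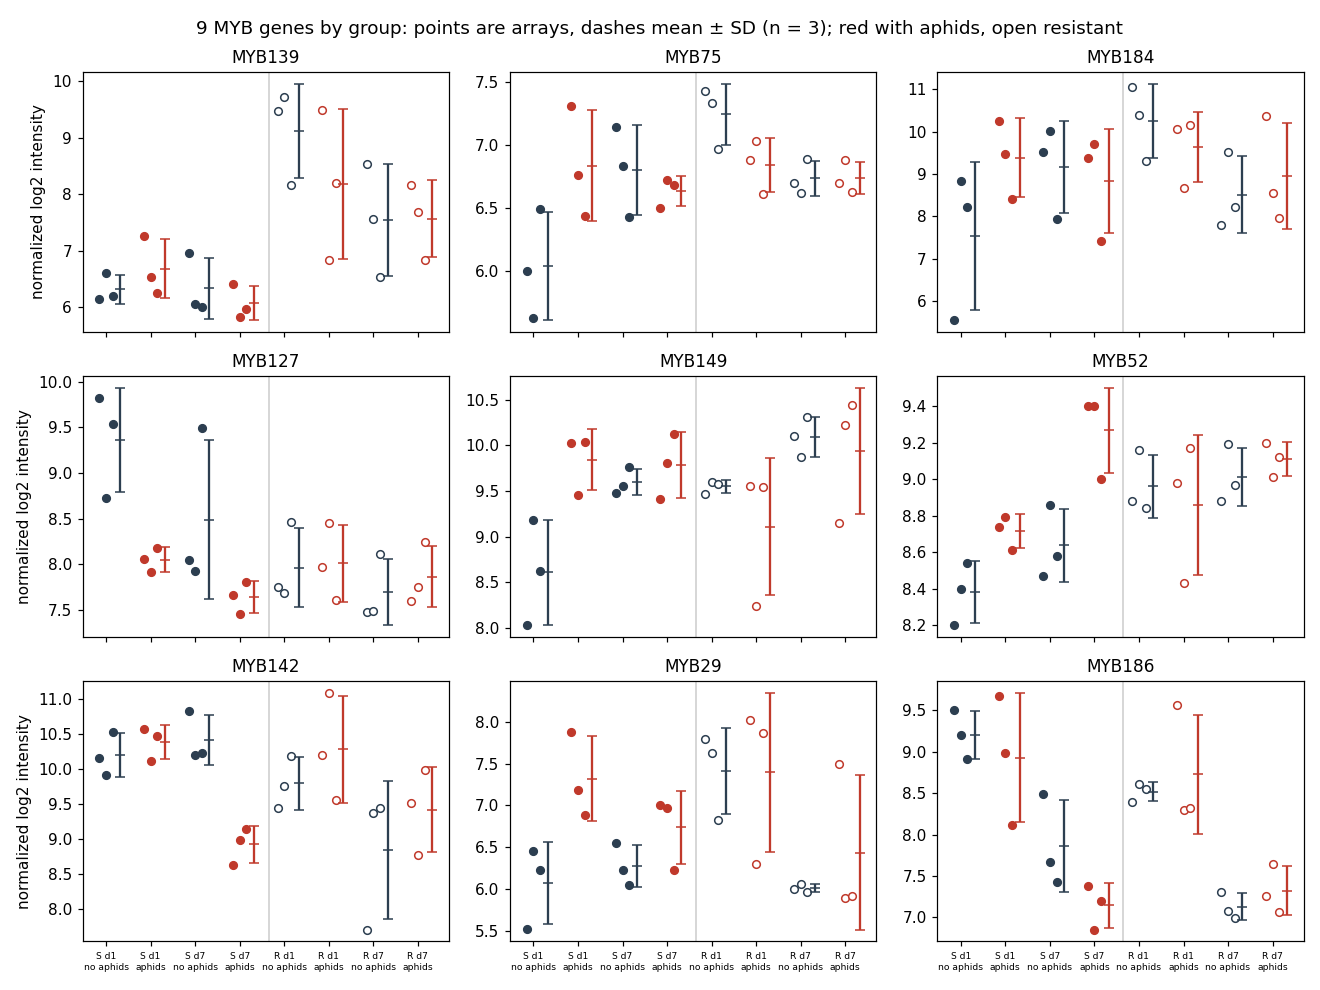
Normalized log2 intensity of 9 called MYB genes on each array (points, infested in red, resistant open), with group mean and SD as dashes (n = 3). MYB139 is high in the resistant line, MYB75 and MYB127 differ mainly in uninfested susceptible leaves of day 1, and MYB186 is lower at day 7.

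At day 7 in susceptible plants 1 gene of 71 was called, MYB52, where 2.84% of all probe sets were called. MYB52 read 8.47, 8.86 and 8.58 without aphids and 9.40, 9.40 and 9.0 with them, with every infested array above every control (0.63 ± 0.17, 1.55-fold, adjusted p = 0.0495). The call sat at the threshold, holding in 6 of 24 fits without 1 array (adjusted p 0.0202 to 0.188), and it was lost with a trended robust prior.

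MYB142 showed the widest difference at this time. It read 10.83, 10.20 and 10.23 in uninfested leaves and 8.63, 8.99 and 9.14 in infested ones, a gap of more than 1 log2 unit between the nearest arrays, yet the adjusted p of 0.0546 missed the threshold (−1.5 ± 0.41, 2.83-fold). When replicate 1 of the uninfested resistant leaves of day 7 was left out, an array that raised the pooled spread of this gene, the same difference had an adjusted p of 0.015. MYB83 read 8.79, 8.65 and 8.84 without aphids and 8.37, 8.23 and 8.14 with them (−0.52 ± 0.17, adjusted p = 0.11). MYB92, which has been tested in transgenic Arabidopsis for tolerance to salt and freezing, had a difference of −0.39 ± 0.14 (adjusted p = 0.141). The median of the 71 differences was −0.07, with 30 above 0, beside a median of −0.03 over all probe sets, and groups did not overlap for 19 genes where 24.3% of all probe sets had such groups.

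In resistant plants no MYB gene was called for aphid feeding by limma, at day 1 where 0% of all probe sets were called or at day 7 where 0.00266% were. At an unadjusted p below 0.05 there were 2 MYB genes at day 1, against 7.62% of all probe sets, and 0 at day 7, against 2.85%. The smallest p-values at day 1 belonged to MYB97 (−0.44 ± 0.17) and MYB133 (−0.35 ± 0.14), both with an adjusted p of 0.623. MYB180 (−0.41 ± 0.20) and MYB93 (−0.42 ± 0.21) had an adjusted p of 0.66 and MYB121 (−0.72 ± 0.37) of 0.676. At day 7 the leading genes were LOC778182, also named MYB160 (0.27 ± 0.15), MYB143 (0.28 ± 0.18), MYB142 (0.58 ± 0.41), MYB11 (−0.33 ± 0.25) and MYB50 (0.49 ± 0.37), all with an adjusted p of 1. Groups did not overlap for 4 genes at day 1 and 3 at day 7, where 9.66% and 7.43% of all probe sets had such groups.

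**Figure D3:**
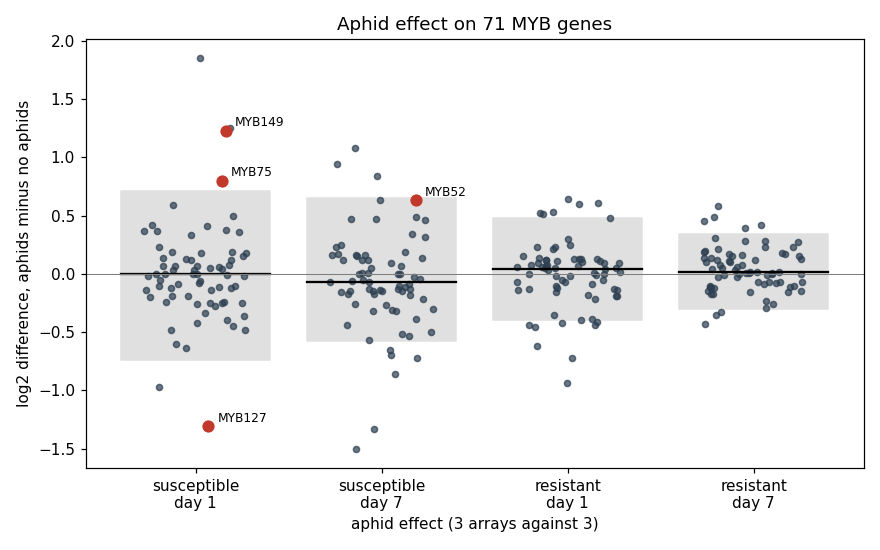
Log2 difference, aphids minus no aphids, of the 71 MYB genes in each cultivar and day (points, called genes in red, black line the median of the 71), over the 5th to 95th percentile of all soybean probe sets (grey band). The band runs from −0.74 to 0.71 in susceptible leaves of day 1 and from −0.3 to 0.34 in resistant leaves of day 7.

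Whether the aphid difference itself differed between the cultivars was tested as an interaction, resistant minus susceptible. No MYB gene was called at day 1 in limma, where 0.886% of all probe sets were called, or at day 7, where 0.676% were. Unadjusted p-values below 0.05 were reached by 8 MYB genes at each day, against 21.8% and 15.7% of all probe sets. At day 1 the leading genes were MYB75, whose aphid differences were 0.80 in susceptible and −0.40 in resistant leaves (interaction −1.20 ± 0.32, adjusted p = 0.0592), and MYB149 (−1.67 ± 0.49, adjusted p = 0.0703). MYB55 followed with −0.49 ± 0.18 (adjusted p = 0.122). At day 7 MYB142 led, with aphid differences of −1.5 in susceptible and 0.58 in resistant leaves (2.08 ± 0.58, adjusted p = 0.0911). It was followed by MYB173 (−1.51 ± 0.54, adjusted p = 0.173) and MYB83 (0.66 ± 0.24, adjusted p = 0.19).

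The change of the aphid difference from day 1 to day 7 gave 0 called MYB genes in either cultivar, where 0% of all probe sets were called in each. In susceptible plants 7 MYB genes had an unadjusted p below 0.05, against 15.8% of all probe sets, and they were led by MYB60 (1.80 ± 0.59, adjusted p = 0.181), MYB75 (−0.96 ± 0.32, adjusted p = 0.182) and MYB93 (0.87 ± 0.30, adjusted p = 0.188). In resistant plants 0 MYB genes did, against 2.75%. The smallest p-values there were those of MYB97 (0.47), LOC778182 (0.36) and LCL3 (−0.32), a clock gene of the LHY type, each with an adjusted p of 1.

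Of the 13 contrasts, the cultivar difference in uninfested leaves of day 1 gave the largest number of called MYB genes. There 8 of the 71 MYB genes were called, 7 higher and 1 lower in the resistant line, where 18.7% of all probe sets were called, 8.91% higher and 9.79% lower. MYB139 had the largest difference. It read 6.14, 6.61 and 6.21 in susceptible leaves and 9.47, 9.72 and 8.17 in resistant leaves (2.80 ± 0.56, 6.96-fold, adjusted p = 0.00311). The nearest arrays of the 2 lines were more than 1 log2 unit apart, and the call held in all 24 fits that left out 1 array, although with the 3′ to 5′ gap as a covariate it was 1.99 with an adjusted p of 0.0705.

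MYB139 stayed higher in the resistant line at the other times and treatments in mean level. In infested leaves of day 1 it read 7.26, 6.53 and 6.25 in the susceptible line and 9.49, 6.84 and 8.20 in the resistant line (1.5 ± 0.56, adjusted p = 0.794, where 0.138% of all probe sets were called). In uninfested leaves of day 7 it read 6.96, 6.06 and 6.0 against 8.53, 7.56 and 6.54 (1.20, adjusted p = 0.275, where 2.28% were called). In infested leaves of day 7 it read 6.42, 5.83 and 5.98 against 8.17, 7.69 and 6.83 (1.48, adjusted p = 0.707, where 0.16% were called). The susceptible arrays lay between 5.83 and 7.26, and 3 resistant arrays, at 6.54, 6.83 and 6.84, fell within that span.

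Averaged over the 4 pairs of groups, MYB139 was the only MYB gene called, where 4.75% of all probe sets were called (1.75 ± 0.28, 3.35-fold, adjusted p = 0.00139). That mean contains the uninfested day 1 pair. Over the other 3 pairs, a mean chosen after seeing the data, it was 1.39 ± 0.33 with an adjusted p of 0.0676. A second MYB139 probe set gave a mean difference of 1.11 (adjusted p = 0.0341) and the remaining one 0.69 (adjusted p = 0.153). A level difference and a mismatch between the probes and the sequence of 1 line cannot be told apart with these arrays. After MYB139, the smallest p-values of the mean belonged to MYB136 (0.21, adjusted p = 0.0677) and MYB127 (−0.50, adjusted p = 0.101).

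MYB184 read 5.55, 8.84 and 8.23 in uninfested susceptible leaves of day 1 and 11.05, 10.39 and 9.31 in resistant ones. The groups did not overlap, and 1 susceptible array lay far below the rest (2.71 ± 0.84, 6.56-fold, adjusted p = 0.031). MYB75 read 6.0, 5.63 and 6.49 against 7.43, 7.33 and 6.97 (1.20 ± 0.22, 2.3-fold, adjusted p = 0.00205). Of the 8 calls, it alone held with the 3′ to 5′ covariate, with an adjusted p of 0.0212 in a fit that called 2.72% of all probe sets, and like MYB139 it held in all 24 fits without 1 array. MYB29 read 5.52, 6.46 and 6.23 against 7.79, 7.62 and 6.83 (1.35 ± 0.44, 2.54-fold, adjusted p = 0.0383).

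MYB76, tested like MYB92 in transgenic Arabidopsis for salt and freezing tolerance, read 5.64, 6.08 and 6.03 in susceptible leaves and 6.95, 6.85 and 6.42 in resistant leaves (0.82 ± 0.25, adjusted p = 0.0284). MYB52 (0.58 ± 0.17, adjusted p = 0.0229) and MYB136 (0.46 ± 0.13, adjusted p = 0.02) were also higher in the resistant line. MYB127 was the gene that was lower there, with resistant arrays at 7.75, 7.68 and 8.46 against 9.82, 8.73 and 9.54 (−1.40 ± 0.35, 2.63-fold, adjusted p = 0.0104). These contrasts share the uninfested susceptible arrays of day 1 with the aphid comparison, so the MYB127 and MYB75 values above are not separate evidence.

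Without replicate 1 of those susceptible arrays 6 of the 8 calls were lost, and the share of all probe sets called in that fit is not given here. The differences were then 1.72 for MYB184 (adjusted p = 0.219), 1.07 for MYB29 (adjusted p = 0.191), 0.69 for MYB76 (adjusted p = 0.147) and −1.17 for MYB127 (adjusted p = 0.074). MYB52 stood at 0.49 (adjusted p = 0.126) and MYB136 at 0.39 (adjusted p = 0.111). The same 6 calls were lost without replicate 1 or replicate 2 of the uninfested resistant leaves of day 1, and that of MYB29 also without replicate 3, and that of MYB136 without replicate 2, of the susceptible controls. The median of the 71 differences was −0.04, and groups did not overlap for 20 genes where 39.6% of all probe sets had such groups.

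By day 7 the uninfested cultivars differed in 1 called MYB gene, where 2.28% of all probe sets were called. MYB142 read 10.83, 10.20 and 10.23 in the susceptible and 7.70, 9.37 and 9.44 in the resistant line (−1.58 ± 0.41, 2.99-fold, adjusted p = 0.0492). All resistant arrays were lower, but replicate 1 lay well below the other 2, and without it the difference was −1.01 with an adjusted p of 0.292. The call held in 8 of 24 fits without 1 array. MYB92 (−0.44, adjusted p = 0.0984) and MYB79 (−0.61, adjusted p = 0.121) came next. MYB142 was also low on the day 7 arrays that were high in seed protein transcripts, described below. It read 7.70, 8.77, 8.63 and 9.14 on the 4 arrays with the highest seed means and 8.99 to 10.83 on the other 8, and the part of the seed transcripts in either MYB142 difference was not tested. Groups did not overlap for 17 genes where 23% of all probe sets had such groups.

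**Figure D4:**
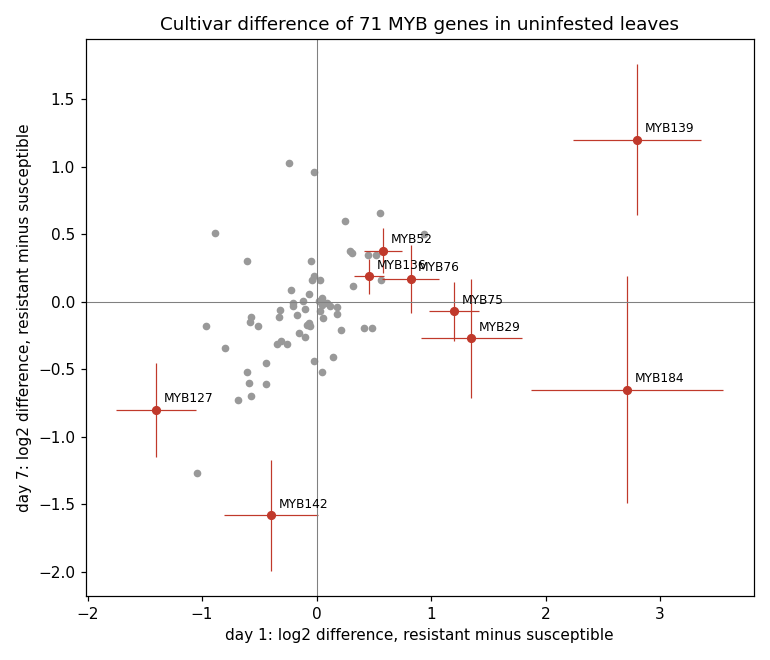
Log2 difference, resistant minus susceptible, of the 71 MYB genes in uninfested leaves at day 1 (horizontal) and day 7 (vertical), with called genes in red and bars for their standard errors. MYB139 lies at 2.8 and 1.2, MYB184 is far to the right, and MYB142 is the lowest point at −1.58 on day 7.

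Isoflavonoid enzyme genes, the known targets of MYB29 and MYB176, were read beside the MYB genes that moved, with CHS8 and IFS2 on probe sets of the kind shared between close relatives. MYB29 and MYB184 were both lowest on replicate 1 of the uninfested susceptible leaves of day 1, at 5.52 and 5.55, and on that array the chalcone synthase gene CHS8 was at 8.40 and the isoflavone synthase gene IFS2 at 9.90. The other 2 arrays of the group had CHS8 at 10.77 and 10.35 and IFS2 at 12.77 and 12.63. Replicate 2 of the infested resistant leaves of day 1 was also low in these genes. It had MYB29 at 6.30, MYB184 at 8.68, CHS8 at 9.29 and IFS2 at 10.5, while its partners had MYB29 at 8.02 and 7.86, MYB184 at 10.07 and 10.16, CHS8 at 12.35 and 12.32 and IFS2 at 12.94 and 13.21. The low arrays of the 2 MYB genes and of the 2 enzyme genes thus coincided within these 2 groups, and all 4 genes were read from the same RNA.

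The 2 arrays were the highest of the 24 in the 3′ to 5′ gap, at 1.721 and 1.504, and had phloem sums of 27.33 and 26.06. The part of RNA quality and tissue makeup in this coincidence was not tested.

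In another group the 2 MYB genes parted. On replicate 1 of the uninfested resistant leaves of day 7 CHS8 stood at 8.42 and IFS2 at 9.87, against 10.98 and 11.14 for CHS8 and 12.47 and 13.09 for IFS2 on the other arrays of the group. MYB184 was lowest on that array too, at 7.79 against 9.53 and 8.22, whereas MYB29 was at 6.0, 6.06 and 5.97 on the 3 arrays. These readings were chosen after their values were seen.

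Of the 26 measured flavonoid and isoflavonoid genes 5 were called in uninfested leaves of day 1, where 18.7% of all probe sets were called. Among them 2 were called higher in the resistant line, the isoflavone reductase gene IFR (1.95 ± 0.63, adjusted p = 0.0371) and the chalcone reductase gene CHR4 (0.74 ± 0.21, adjusted p = 0.0218). Lower there were 3 genes: the flavanone 3-hydroxylase gene F3H (−2.00 ± 0.36, adjusted p = 0.00157), the chalcone isomerase gene CHI3A1 (−1.27 ± 0.28, adjusted p = 0.00479) and the flavonol synthase gene FLS1 (−1.21 ± 0.27, adjusted p = 0.00569). The median of the 26 was 0.5, with 22 above 0, beside a median of 0.03 over all probe sets. CHS8 (1.74 ± 0.78, adjusted p = 0.128) and IFS2 (0.82 ± 0.78, adjusted p = 0.501) were not called.

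With aphids on susceptible leaves of day 1, 21 of the 26 genes were above 0 with a median of 0.73, none was called higher, and F3H was called lower (−1.28 ± 0.36, adjusted p = 0.0439). At day 7 in susceptible leaves 7 of 26 were above 0 and none was called, with a median of −0.24. Among 7 genes of phenylpropanoid entry, the phenylalanine ammonia-lyase gene PAL2.1 was called lower there (−1.51, adjusted p = 0.0472), and the median was −0.75. The 71 MYB genes had medians near 0 in these same contrasts.

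The 2 sampling days were compared in uninfested plants, day 7 minus day 1. In susceptible plants 4 MYB genes were called where 10.5% of all probe sets were called, and in resistant plants 3 were called where 3.91% were. MYB186 was called in both lines. It read 9.50, 9.20 and 8.91 at day 1 and 8.49, 7.67 and 7.43 at day 7 in the susceptible line (−1.34 ± 0.35, 2.54-fold, adjusted p = 0.0217). In the resistant line it read 8.39, 8.61 and 8.55 at day 1 and 7.31, 7.08 and 6.99 at day 7 (−1.39 ± 0.35, 2.62-fold, adjusted p = 0.0296). Every day 7 array was below every day 1 array in each line.

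MYB124 fell in susceptible plants, from 7.79, 7.05 and 6.87 to 6.38, 6.29 and 6.44 (−0.87 ± 0.24, adjusted p = 0.0287). In resistant plants it went from 7.10, 6.90 and 6.66 to 5.90, 6.25 and 6.03, again without overlap, with a difference of −0.83 and an adjusted p of 0.0584. The infested leaves of both lines showed the same order, since all 6 infested day 1 arrays, at 6.68 or higher, were above all 6 infested day 7 arrays, at 6.63 or lower. MYB136 (0.43 ± 0.13, adjusted p = 0.0398) and MYB75 (0.76 ± 0.22, adjusted p = 0.037) rose in susceptible plants, with overlapping arrays for MYB75.

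In resistant plants MYB97 fell from 5.80, 6.16 and 5.75 to 5.10, 5.42 and 5.18 (−0.67 ± 0.17, adjusted p = 0.0286), with its day 7 level at the array background. MYB11 rose from 5.96, 6.25 and 5.78 to 7.10, 6.63 and 6.92 (0.89 ± 0.25, adjusted p = 0.0476), but its other 2 probe sets gave 0.09 and −0.09. Those 2 lay near the array background, with mean levels of 5.69 and 4.72 against 6.43 for the first. The MYB11 call held in 7 of 24 fits without 1 array. MYB29 (−1.40 ± 0.44, adjusted p = 0.0795) and MYB184 (−1.74 ± 0.84, adjusted p = 0.295) were lower at day 7 in the resistant line in mean level. In that line 19 of the 71 differences were above 0 and the median was −0.17, beside 0.02 over all probe sets. Groups did not overlap for 20 genes in the resistant and 13 in the susceptible line, where 23.8% and 31.3% of all probe sets had such groups.

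The calls between days rested on few arrays. In the susceptible line all 4 were lost without replicate 1 of the day 1 leaves. At day 7 that of MYB186 was lost without replicate 2 or 3, that of MYB124 without replicate 1 or 2 and that of MYB136 without any replicate, and also without replicate 2 of day 1. That of MYB75 was lost without replicate 2 of day 1 or replicate 1 or 2 of day 7 as well (adjusted p 0.132 to 0.163). In the resistant line the MYB186 call was lost without any of the 6 uninfested arrays and the MYB97 call without replicate 1 or 2 of day 1 or replicate 1 or 3 of day 7. With the 3′ to 5′ gap as a covariate no call was left in the susceptible line, where 1.27% of all probe sets were still called, and the 3 in the resistant line held.

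MYB173 and MYB177 shared a pattern across the day 7 arrays that was picked out after their values were seen. MYB177 is another gene tested in transgenic Arabidopsis for salt and freezing tolerance. On the day 1 arrays MYB173 lay between 5.48 and 6.19 and MYB177 between 5.63 and 6.63, in the lower part of the array range. At day 7 MYB173 read 5.81, 6.25 and 6.21 in uninfested and 7.27, 6.48 and 7.75 in infested susceptible leaves (1.08 ± 0.38, adjusted p = 0.135). MYB177 read 6.04, 6.23 and 5.84 in uninfested and 7.40, 6.33 and 7.22 in infested susceptible leaves (0.94 ± 0.39, adjusted p = 0.206). Infested arrays were the higher ones for both genes, without overlap, and neither gene was called.

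In the resistant line the high arrays did not follow infestation. MYB177 read 8.03, 6.87 and 6.29 without aphids and 6.66, 7.65 and 6.12 with them, and MYB173 read 7.91, 6.59 and 6.66 without aphids and 5.88, 7.62 and 6.35 with them. The 4 day 7 arrays with the highest MYB177 were therefore replicate 1 of the uninfested resistant leaves, replicate 2 of the infested resistant leaves and replicates 1 and 3 of the infested susceptible leaves, and the same 4 were the highest in MYB173. They were also the 4 highest in the mean of 41 seed storage and other seed protein genes, at 7.33 to 7.7, against 6.33 to 6.96 on the other 8 day 7 arrays and 6.18 to 6.49 on day 1. Of the 41 seed genes 19 lay near the background in their mean over all arrays. Whether the seed transcripts have a part in the MYB173 and MYB177 readings was not tested. The second MYB177 probe set gave a day difference of 1.01 ± 0.29 in the uninfested resistant line (adjusted p = 0.0584), and the first 1.23 (adjusted p = 0.0844).

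**Figure D5:**
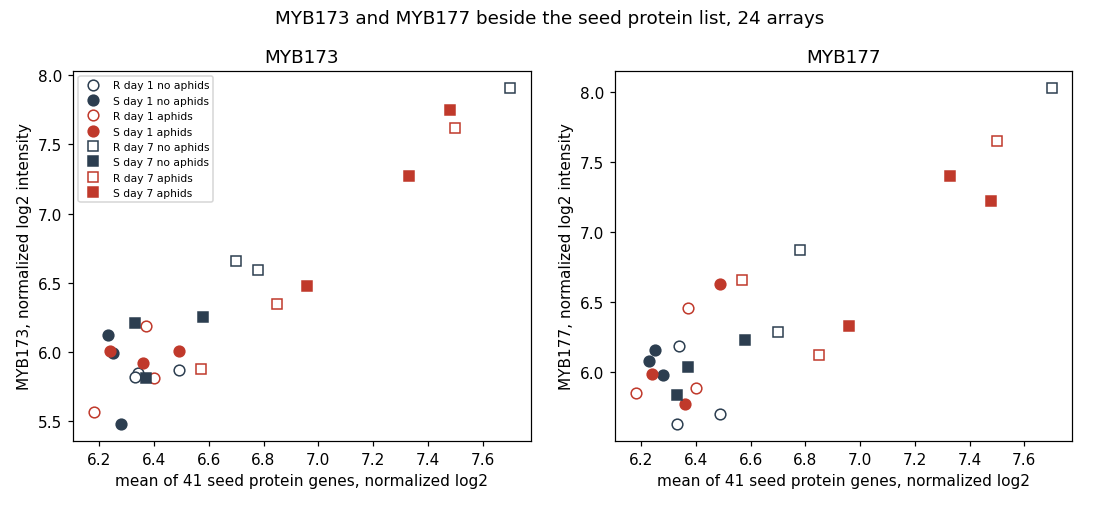
MYB173 (left) and MYB177 (right), normalized log2 intensity, against the mean normalized log2 level of 41 seed protein genes on each of the 24 arrays (circles day 1, squares day 7, red infested, open resistant). The 4 arrays with a seed mean of 7.33 or more have MYB173 at 7.27 to 7.91 and MYB177 at 7.22 to 8.03.

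The other members with a known role were not called. MYB84 and MYB118, both tied to drought tolerance in soybean, and MYB14, which affects plant height there, were low on the array, with mean levels of 5.11, 5.92 and 5.97. MYB114 and LCL3, clock genes of the LHY type, lay at 5.61 and 5.37. MYB84 and LCL3 had all 8 group means within 0.5 of the 5th percentile or below it, MYB114 had 4 there and MYB118 had 2. At signals that close to the background a difference could have been missed. MYB14 had no group mean there.

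Probe sets of the same gene did not always behave alike. The second MYB29 probe set gave 1.5 ± 0.46 (adjusted p = 0.028) for the cultivar difference of day 1, close to the first. For MYB136 another probe set gave 0.64 (adjusted p = 0.0235). For MYB92 another probe set gave 1.38 ± 0.34 (adjusted p = 0.00961), where the one that stood for the gene gave −0.02. For MYB133 the other 2 gave 0.61 (adjusted p = 0.00943) and 0.56 (adjusted p = 0.0249) against 0.21. Counting a gene as called if any of its probe sets was called raised the cultivar difference of day 1 from 8 to 13 genes. Over all 6031 genes that rule raised the share called from 22.4% to 26.1%. Of the 71 probe sets 10 carry a suffix that marks probes shared between transcripts (6 x_at and 4 s_at), so close relatives may contribute to those signals. Among them are those of the called genes MYB29, MYB52 and MYB136, and that of MYB176. In addition, 7 pairs of members share a probe-set stem, MYB75 with MYB83 and MYB176 with MYB175 among them.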

How the data were processed

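Values deposited by the authors were log2 intensities, 1 per probe set, from 24 Affymetrix soybean arrays of biotin-labelled total RNA. The submitters' processing notes name RMA, GCRMA and limma, and their role, order and the summarisation are not given in the sources used. Of the linear values, 99.65% were whole within 0.01, and array medians ran from 7.00 to 8.04. The 60 control probe sets were left out and 0 columns lacked a sample. The values were quantile normalized and fitted as 8 group means in limma 3.58.1 (R 4.3.3, lmFit and eBayes, prior df 3.65, residual df 16). P-values were adjusted by Benjamini-Hochberg within each of 13 contrasts over 37593 soybean probe sets, with a threshold of 0.05. Scripts were tested on simulated data. Named were genes called without overlap, the 5 smallest p-values of each aphid effect, the 3 smallest of each other contrast, the 3 brightest and 3 dimmest, and members with a known soybean role. Members, lists and tests were chosen with earlier results of these data known. Alternatives were other scalings, a trended robust prior, a filter on dim probe sets, a replicate block, own-group fits, a 3′ to 5′ covariate and leaving out each array.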

Additional observations from a re-analysis of the deposited data

Results flagged for a closer look

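In susceptible plants the aphid differences of MYB60 ran in opposite directions at the 2 days without overlap of arrays, at −0.97 on day 1 and 0.84 on day 7. It read 8.51, 6.77 and 7.16 without and 6.65, 6.33 and 6.57 with aphids on day 1, and 6.23, 6.48 and 6.58 without and 7.92, 6.63 and 7.25 with aphids on day 7. The test of the difference between days gave 1.80 ± 0.59 with an adjusted p of 0.181 in limma. MYB93 did the same, at −0.4 on day 1 and 0.47 on day 7 (0.87 ± 0.30, adjusted p = 0.188). MYB83 differed between the lines at day 7, at −0.52 in susceptible and 0.14 in resistant leaves (0.66 ± 0.24, adjusted p = 0.19). None of these 3 differences was called. No formal test for an outlying array was made in groups of 3.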

How the results depend on the processing

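Counts of called MYB genes moved with the processing as follows, and the share of all probe sets called moved too. That share is given in percent for some of the settings. For the aphid effect in susceptible leaves of day 1 (3 genes) there were 0 without scaling (0.402%), 0 with the 3′ to 5′ covariate (0.0293%) and 0 in a fit of its own groups (1.41%). There were 0 to 5 when 1 array was left out (0.0239% to 8.65%). For that of day 7 (1 gene) there were 3 without scaling (5.68%), 3 with the covariate (6.28%), 2 among probe sets above the median, 0 with the trended robust prior and 0 with the replicate block (3.32%). There were 0 to 2 when 1 array was left out (0.585% to 3.97%). The interaction of cultivar and aphids at day 7 (0 genes) gave 2 with the covariate (2.34%) and 0 to 2 when 1 array was left out (0.0319% to 1.71%). That of day 1 (0 genes) gave 0 to 2 when 1 array was left out (0% to 10%). The cultivar difference of day 1 (8 genes) gave 1 with the covariate (2.72%), 13 with any probe set of a gene and 2 to 13 when 1 array was left out. That of day 7 (1 gene) gave 0 with median centring, 0 without scaling (0.902%), 0 with the trended robust prior, 0 in its own groups (0.388%) and 0 to 1 when 1 array was left out. The mean cultivar difference (1 gene) gave 0 among probe sets above the median, a filter that removes MYB139, 2 with the replicate block, 0 over the 3 other pairs and 1 to 3 when 1 array was left out. The day difference in susceptible leaves (4 genes) gave 2 with median centring, 1 without scaling (1.58%), 2 above the median (17.2%), 0 with the covariate (1.27%), 0 in its own groups (0.0266%) and 0 to 5 when 1 array was left out. That in resistant leaves (3 genes) gave 1 above the median, 7 with the replicate block (4.81%, 2 of them shared with the 3) and 0 to 5 when 1 array was left out. The aphid effects in resistant leaves and the changes of the aphid difference between days stayed at 0 to 0 when 1 array was left out. No named difference reversed. Of the 36 named differences the covariate left 22 on their side of the threshold, ended 13 calls and added 1. Without scaling the median of all probe sets itself moved, by −0.126 and 0.258 for the aphid effects in susceptible leaves of day 1 and day 7, by −0.145 for that in resistant leaves of day 1, by 0.204 for the cultivar difference of day 1, by −0.249 for the day 7 interaction and by 0.392 for the change of the susceptible aphid difference between days. Arrays with the same replicate number deviated from their group means with a mean correlation of 0.079 over 84 pairs (−0.499 to 0.457), against −0.039 for other numbers. Of these same-number pairs 44 exceeded 0.1, a larger share than the 43 of 168 with other numbers. Deviations cancel over the 3 arrays of a group, so the values for same and other numbers are tied. Neither comparison can therefore decide on a pairing. The labels do not say whether the numbers pair the samples. The main fit therefore did not pair them, although a pairing is not excluded. The replicate block ended 3 named calls, those of MYB52 with aphids on susceptible leaves of day 7 (adjusted p = 0.0572), of MYB142 between the cultivars at day 7 (adjusted p = 0.0517) and of MYB11 between days in the resistant line (adjusted p = 0.0559). Probe sets near the background and 3 arrays a group limit what could be seen.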
